A study of Homo sapiens with 24 samples.

Results

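The genes examined were the CDC2-like kinases CLK1, CLK2, CLK3 and CLK4, the splicing regulators TRA2A and TRA2B, and the SR protein kinases SRPK1 and SRPK2. They were chosen by gene symbol, and all 8 were found in each of 3 experiments, among 18154 gene symbols in all. RNA was sequenced from the wild-type BT549 line, which derives from a human breast cancer without hormone receptors or HER2 amplification (triple negative), in 8 groups of 3 libraries that the labels number as biological replicates. One experiment was a knockdown, with pooled siRNAs that target MYC left on the cells for 72 h (siMYC) beside control siRNA (siCtl, no time stated). The inhibitor experiment used vehicle (VEH), a treatment labelled DEX with no dose or time given, the MYC inhibitor KJ-PYR-9 at 40 µM in DMSO for 3 h, or both agents (KJ-PYR-9+DEX). The MB-3 experiment used a separate vehicle (VEH2) or 100 µM of MB-3 for 3 h (MB3), an inhibitor of the histone acetyltransferase GCN5, whose gene is KAT2A. One library of that last group carries MED3 in its title and MB3 in its treatment field, and was taken as MB3. All groups come from a single cell line, and KJ-PYR-9 and MB-3 were each used at a single dose and time.

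SR proteins are splicing factors with a tail rich in arginine and serine, and their phosphorylation decides where they are in the cell and which exons they help to define. SRPK1 and SRPK2 phosphorylate that tail mainly in the cytoplasm, which lets SR proteins enter the nucleus, and the CLK kinases phosphorylate it further in the nucleus, which frees SR proteins from nuclear speckles. TRA2A and TRA2B are SR-like proteins that bind purine-rich exonic enhancers. CLK1 and TRA2B are known to control their own mature transcripts through alternative splicing, in CLK1 through retained introns and a skipped exon, in TRA2B through a poison exon. The values here are sums per gene, so they hold no information on those forms.

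Members were compared as normalized read counts, the values that the authors deposited for each library. They are levels relative to the rest of the library, so a change shared by all genes does not show. In these bulk samples fewer cells that express a gene and less of its RNA per cell cannot be told apart. Knockdown libraries held 18.77 to 24.16 M reads, inhibitor libraries 5.582 to 30.76 M and MB-3 libraries 8.306 to 19.96 M. The fewest reads of any member were 68, for CLK2 in DEX 1, where counting error alone is 12.1%. Library DEX 1 stands apart: 26.04% of its reads fell in features without a gene symbol, against 1.618% to 8.722% in the other 11 libraries of that experiment, so counts of members and lists called against DEX libraries, and single values where they move, are given also without it. All 5 markers of a mesenchymal breast line (VIM, FN1, CD44, ZEB1 and SPARC) were present in all 3 experiments. Of 6 markers looked up as low or absent in such a line, ERBB2 was listed in all 3 experiments, at 1249 in siCtl, 836 in VEH and 823 in VEH2. Its mean lay above 79.9%, 83.4% and 60.9% of genes there. CDH1 stood at 90.0 in siCtl, 377 in siMYC and 44.4 in VEH, and KRT8 at 17.4, 65.7 and 12.3. PGR was listed in the inhibitor experiment alone (0.127 in VEH), and ESR1 and EPCAM in none. Among the 8 leukocyte and endothelial markers, PTPRC, CD14 and VWF were listed in at least 1 table, with summed values of 23.3 to 73.8 in the inhibitor experiment and 29.7 to 56.5 in the knockdown. The siRNA target MYC stood at 2313, 2269 and 2138 in siCtl and 1655, 1789 and 1710.3 in siMYC, with no overlap, but its log2 difference of -0.38 (SE 0.11) missed the threshold (limma adjusted p = 0.0587). MYC transcript was higher than in VEH after KJ-PYR-9, by 2.49 in log2 units (limma adjusted p = 6.38e-05), and after DEX, by 3.40 (limma adjusted p = 4.07e-06), or 3.35 without DEX 1 (limma adjusted p = 4.87e-05). With KJ-PYR-9+DEX it was lower than with DEX alone, at -2.15 (limma adjusted p = 5.71e-05), with an interaction of -4.63 (limma adjusted p = 4.38e-06). KAT2A was not called after MB-3 (-0.20, limma adjusted p = 0.526).

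The members sit at separate places in the genome. On GRCh38 in GENCODE, CLK1 spans chromosome 2, 200853009 to 200864744, CLK2 chromosome 1, 155262868 to 155278491, CLK3 chromosome 15, 74598500 to 74645414, and CLK4 chromosome 5, 178602664 to 178630615. TRA2A spans chromosome 7, 23504780 to 23532041, TRA2B chromosome 3, 185915906 to 185938136, SRPK1 chromosome 6, 35832966 to 35921342, and SRPK2 chromosome 7, 105110704 to 105399308. Whether reads were counted by strand is not given in the sources used here, so reads in shared exons cannot be told apart between strands. Genes on the opposite strand share exon bases with 3 members. For CLK3 these are EDC3 (3.43% of its exon bases), AC100835.2 (2.34%) and AC100835.1 (0.88%), for SRPK1 LHFPL5 (3.96%), and for SRPK2 AC004884.2 (2.14%) and KMT2E (1.55%). On the same strand, RN7SKP70 shares 161 exon bases with CLK4 (2.03% of the exon bases of CLK4). The processed copies CLK2P1, CLK3P2 and SRPK2P can also take reads from their parent genes.

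Promoter sequences show what the paralogs hold next to their start sites and were read for the members the results turn on. RefSeq on GRCh38.p14 gave promoters for 7 of the 8 members. Each promoter of 300 bases (250 before and 50 after an annotated start, several starts for CLK1, CLK3 and SRPK2) was searched on both strands for the E-box CACGTG, which MYC and related factors recognise, for the CRE core TGACGT, and for the AP-1 motif TGANTCA. The 250 bases before the start are printed for CLK1, whose level moved most, for its paralog CLK4, and for CLK2 and TRA2B, which hold a motif. Capitals mark a motif.
CLK1, minus strand, chr2:200864659-200864908: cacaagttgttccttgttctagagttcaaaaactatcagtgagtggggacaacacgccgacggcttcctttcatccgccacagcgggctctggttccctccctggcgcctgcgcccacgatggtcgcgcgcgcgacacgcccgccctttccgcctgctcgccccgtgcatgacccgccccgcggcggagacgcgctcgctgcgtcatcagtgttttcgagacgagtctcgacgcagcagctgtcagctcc
CLK2, minus strand, chr1:155273505-155273754: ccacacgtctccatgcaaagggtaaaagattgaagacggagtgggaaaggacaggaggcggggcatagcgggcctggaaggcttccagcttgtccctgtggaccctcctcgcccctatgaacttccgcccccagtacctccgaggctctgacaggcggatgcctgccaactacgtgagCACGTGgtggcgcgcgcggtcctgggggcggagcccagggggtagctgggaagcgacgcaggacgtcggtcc
CLK4, minus strand, chr5:178627051-178627300: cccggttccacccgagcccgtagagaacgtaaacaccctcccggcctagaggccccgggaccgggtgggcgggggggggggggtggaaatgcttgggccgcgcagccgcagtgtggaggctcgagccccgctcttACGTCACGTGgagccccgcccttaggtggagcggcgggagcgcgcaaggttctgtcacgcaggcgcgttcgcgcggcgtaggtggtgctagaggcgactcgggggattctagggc
TRA2B, minus strand, chr3:185938015-185938264: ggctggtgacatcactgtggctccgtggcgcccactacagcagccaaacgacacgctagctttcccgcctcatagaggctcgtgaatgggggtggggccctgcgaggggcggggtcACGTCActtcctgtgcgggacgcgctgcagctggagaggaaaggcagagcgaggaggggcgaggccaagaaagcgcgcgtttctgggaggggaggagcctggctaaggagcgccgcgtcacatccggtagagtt
The E-box was found in CLK2, 72 bases before the start, and in CLK4, 111 bases before it. The CRE core was found in CLK4 at 115 bases before the start, in its reverse form ACGTCA, where it overlaps the E-box, in TRA2B at 134 bases, and at 1 of the 4 starts of SRPK2 at 200 bases. The AP-1 motif was found in none. Of all 35116 RefSeq promoters, 7.3% held the E-box, 8.0% the CRE core and 7.7% the AP-1 motif. These are matches of letters and do not show that a factor was bound.

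TRA2B had the highest level per length of the members in all 3 control groups, measured as normalized read count per kb of the longest coding transcript. It stood at 1488 ± 15.3 (SD, n = 3) in siCtl, 676 ± 49.1 in VEH and 875 ± 5.02 in VEH2. TRA2A came second, at 656 ± 4.91, 247 ± 2.73 and 273 ± 3.37. The other 6 genes lay closer together, from 309 to 435 per kb in siCtl, 117 to 205 in VEH and 137 to 205 in VEH2. Their order depended on the length used: CLK3 was at rank 3 to 5 per kb of its longest coding transcript, and at rank 8 per kb of all its annotated exons. With all exons, TRA2A (416) also stood above TRA2B (373) in siCtl. Levels are not compared across the 3 experiments, which were normalized separately.

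**Figure D1:**
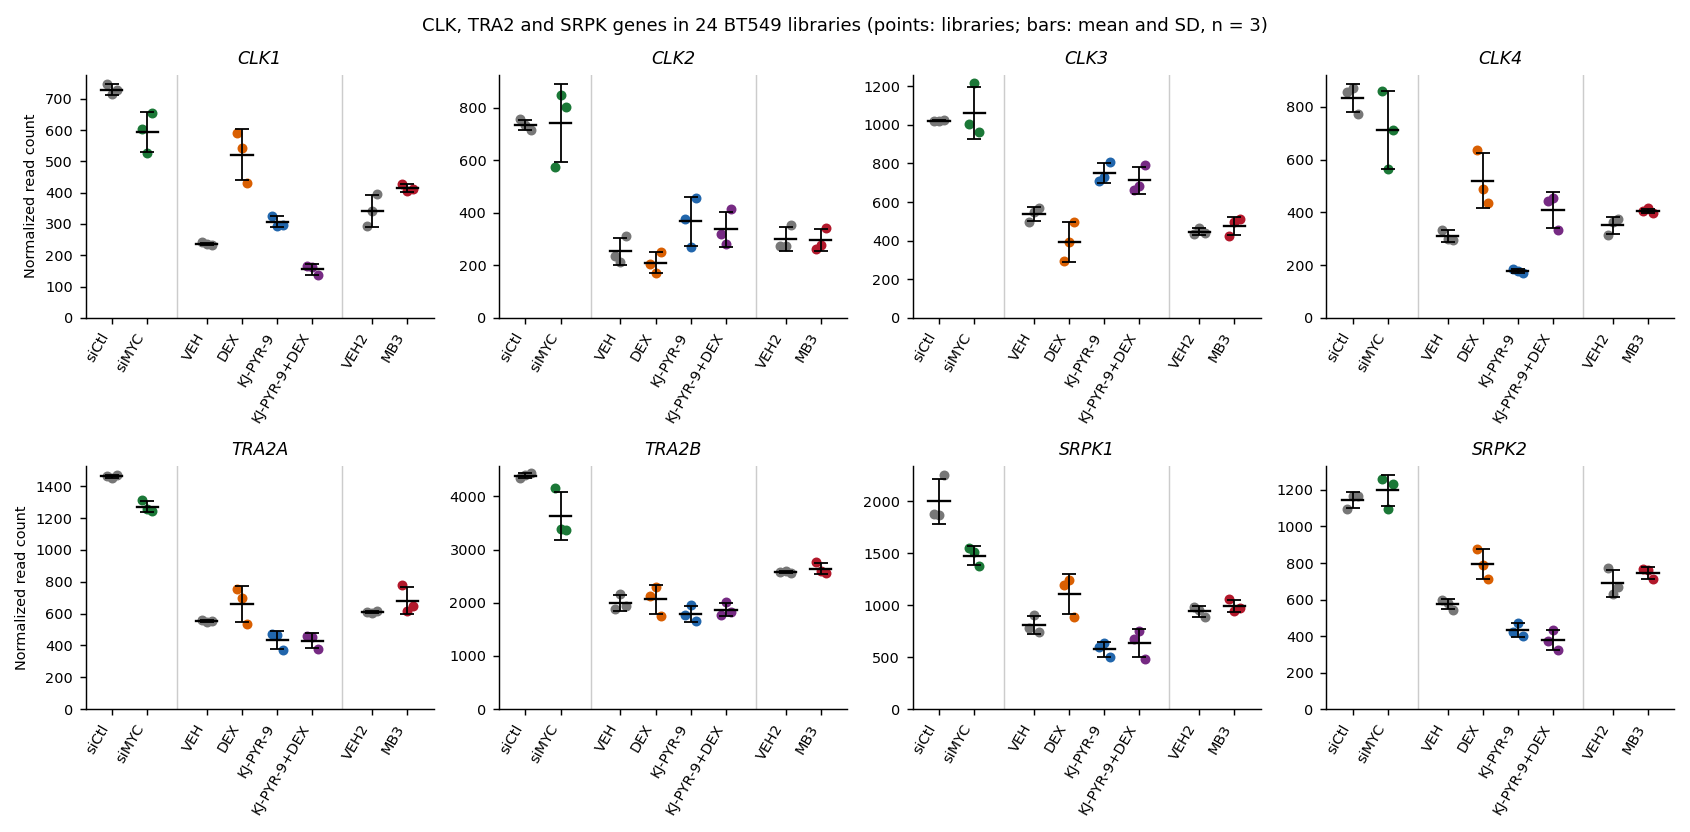
Normalized read count (vertical axis, linear from 0) of each of the 8 genes in the 24 libraries, by group, with points for libraries and bars for the mean and SD (n = 3); vertical lines part the 3 experiments, which are not on a shared scale. CLK1 lies between 432 and 592 in DEX and between 136 and 166 in KJ-PYR-9+DEX, with VEH and KJ-PYR-9 between them, while TRA2B overlaps in all 4 groups of the inhibitor experiment.

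CLK1 had the widest swing of the members in the inhibitor experiment. In the order of replicates 1, 2 and 3, its normalized read counts were 241, 237 and 234 in VEH, 592, 543 and 432 in DEX, 327, 295 and 298 in KJ-PYR-9, and 166, 162 and 136 in KJ-PYR-9+DEX. The groups were ordered DEX, KJ-PYR-9, VEH and KJ-PYR-9+DEX from high to low, and no 2 neighbours in that order overlapped. DEX raised CLK1 above VEH by 1.12 in log2 units (SE 0.14, 95% CI 0.81 to 1.43), a 2.18-fold rise (limma adjusted p = 0.000643), and by 1.03 without DEX 1 (limma adjusted p = 0.00325). KJ-PYR-9 given with DEX lowered CLK1 against DEX alone by a log2 difference of -1.74 (SE 0.14, 95% CI -2.05 to -1.43, limma adjusted p = 2.25e-05), or -1.65 without DEX 1 (limma adjusted p = 0.000141). That call was lost with the GC content and length trends described further on removed (-0.28, limma adjusted p = 0.144). KJ-PYR-9 alone gave a log2 difference of 0.37 (SE 0.14, 95% CI 0.06 to 0.68) against VEH, which missed the threshold (limma adjusted p = 0.0542) and passed it with the replicate number as a block (limma adjusted p = 0.0138).

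The log2 difference that KJ-PYR-9 made to CLK1 was 0.37 without DEX and -1.74 with it. The interaction, the second of these minus the first, was -2.11 for CLK1 (SE 0.20, 95% CI -2.55 to -1.67, limma adjusted p = 5.79e-05). Over the omission of each of the 12 libraries in turn it ranged from -2.24 to -2.01. Of all 13616 genes tested, 16.8% had a called interaction, and 2 of the 8 members did, both lower (9.62% of all genes); with the replicate block these 2 were again the members called, against 32.3% of all genes. SRPK2 was the other, at -0.67 (SE 0.20, limma adjusted p = 0.0419). Its call was lost without filtering on level (limma adjusted p = 0.0595), with TMM rescaling (0.0604), in edgeR (adjusted p = 0.0574), with the GC content and length trends described further on removed (-0.28, limma adjusted p = 0.158) and on omission of any library other than DEX 3 and KJ-PYR-9+DEX 2, when the limma adjusted p was 0.057 to 0.106. Without DEX 1, CLK1 was the only member with a called interaction (-2.01, limma adjusted p = 0.000184), against 12.6% of all genes.

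CLK4, the closest paralog of CLK1, was lower after KJ-PYR-9 and higher after DEX. CLK4 values were 335, 298 and 294 in VEH, 638, 489 and 435 in DEX, 186, 177 and 172 in KJ-PYR-9, and 445, 454 and 332 in KJ-PYR-9+DEX. All KJ-PYR-9 libraries lay below all VEH libraries, and all DEX libraries lay above them. KJ-PYR-9 alone lowered CLK4 by a log2 difference of -0.79 (SE 0.17, limma adjusted p = 0.00515), and the call held on omission of any of the 6 libraries (-0.82 to -0.73) but was lost with GC content and length trends removed (-0.06, limma adjusted p = 0.725). DEX raised CLK4 by 0.73 (SE 0.17, limma adjusted p = 0.0162). That call was lost without VEH 2 (limma adjusted p = 0.0556), VEH 3 (0.0589) or DEX 1 (0.58, limma adjusted p = 0.0599). It was also lost with GC content and length trends removed (0.17, limma adjusted p = 0.357). With KJ-PYR-9+DEX the values of CLK4 overlapped those of DEX alone (-0.34, SE 0.17, limma adjusted p = 0.0932), and the call was made with the replicate block (limma adjusted p = 0.027) and without DEX 3 (-0.46, limma adjusted p = 0.039). Without DEX 1 that difference was -0.18 (limma adjusted p = 0.339). With GC content and length trends removed it turned to 1.01 and was called higher (limma adjusted p = 0.000188). The interaction of CLK4 was 0.45 (95% CI -0.07 to 0.97, limma adjusted p = 0.219), and 0.61 without DEX 1 (limma adjusted p = 0.0958). With those trends removed the interaction was 1.07 and was called (limma adjusted p = 0.000857).

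CLK2 and CLK3, nuclear SR protein kinases of the same family, had their highest means in the KJ-PYR-9 groups. CLK3 values were 496, 546 and 570.5 in VEH, 293, 391 and 499 in DEX, 707, 732 and 809.7 in KJ-PYR-9, and 662, 682 and 792 in KJ-PYR-9+DEX. The 6 libraries with KJ-PYR-9 all lay above the 6 without it. CLK3 rose with KJ-PYR-9 by 0.48 (SE 0.18, limma adjusted p = 0.0489), a call lost on omission of any 1 of the 6 libraries (limma adjusted p 0.067 to 0.147), without filtering (0.0741), with TMM rescaling (0.0982) and in edgeR (adjusted p = 0.0535). That call was also lost with GC content and length trends removed (0.47, limma adjusted p = 0.0751). Against DEX alone, KJ-PYR-9+DEX raised CLK3 by 0.88 (SE 0.18, limma adjusted p = 0.00141), and by 0.68 without DEX 1 (limma adjusted p = 0.00426). DEX alone gave -0.48 (SE 0.18, limma adjusted p = 0.0816) with overlapping groups, and passed with the block (limma adjusted p = 0.0152), in DESeq2 (adjusted p = 0.0393) and without DEX 3 (-0.66, limma adjusted p = 0.0183). Without DEX 1 that difference was -0.28 (limma adjusted p = 0.282). The interaction of CLK3 was 0.40 (limma adjusted p = 0.305), and 0.20 without DEX 1 (limma adjusted p = 0.569).

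CLK2 had the largest spread of the members in VEH and KJ-PYR-9, with an SD of 20.1% and 25.5% of the mean. Its values were 237, 214 and 311 in VEH, 207, 172 and 252 in DEX, 376, 270.4 and 457 in KJ-PYR-9, and 319, 283 and 413 in KJ-PYR-9+DEX. In each group replicate 3 was the highest and replicate 2 the lowest, so the spread ran along the replicate number, and KJ-PYR-9 overlapped VEH. CLK2 rose with KJ-PYR-9+DEX against DEX by 0.68 (SE 0.23, limma adjusted p = 0.0223), a call lost without DEX 1 (limma adjusted p = 0.051), DEX 2 (0.0865) or KJ-PYR-9+DEX 3 (0.0838). That call was also lost with GC content and length trends removed (0.38, limma adjusted p = 0.184). KJ-PYR-9 alone gave 0.52 (95% CI 0.01 to 1.03, limma adjusted p = 0.0906), which was called without KJ-PYR-9 2 (0.72, limma adjusted p = 0.0401). With the replicate block the SE of this difference was 0.09 and not 0.23, and CLK2 was called after KJ-PYR-9 (limma adjusted p = 0.00142) and, at -0.27, after DEX (limma adjusted p = 0.0407).

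**Figure D2:**
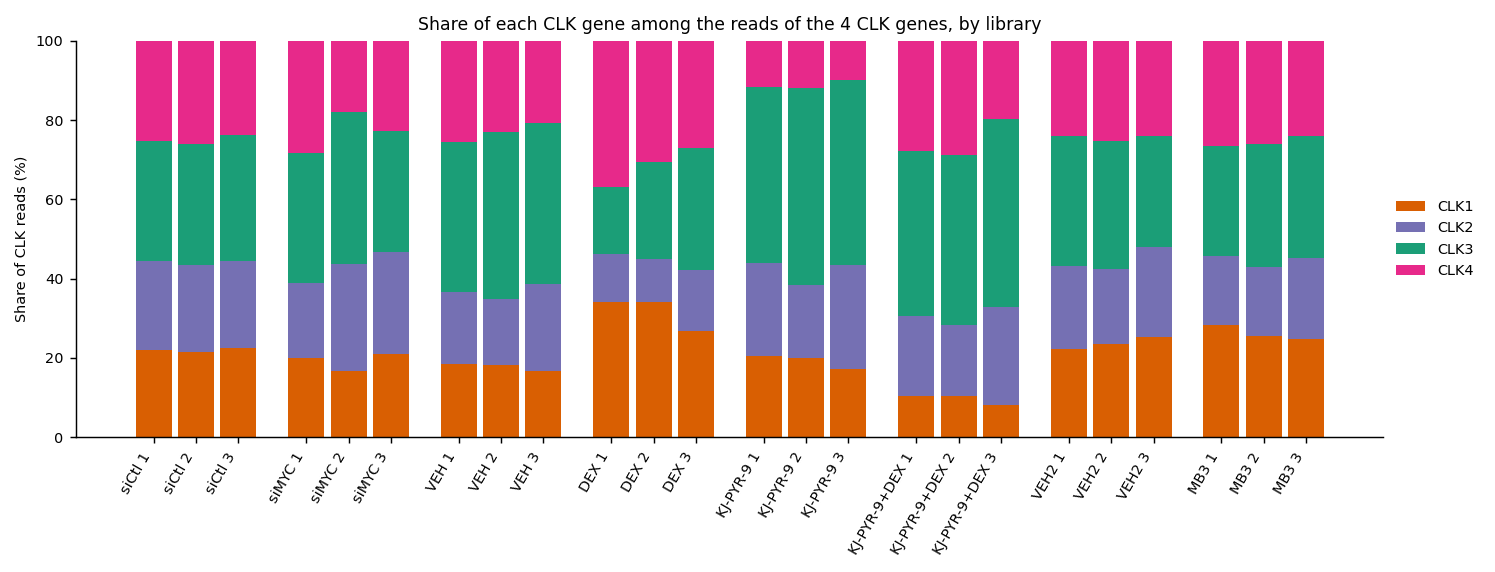
Share (%) of each CLK gene among the reads of the 4 CLK genes, stacked to 100 for each of the 24 libraries, which are grouped by treatment. Trends with GC content and length were not removed from these reads. The CLK1 share is 26.7% to 34.2% in DEX and 8.1% to 10.5% in KJ-PYR-9+DEX, and the CLK4 share is lowest in KJ-PYR-9, at 9.9% to 12%.

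Within the CLK family the make-up of the reads shifted while the sum moved less. A share within a library does not depend on how libraries were scaled to each other. It can still follow the GC content and length trends described further on, which were not removed from the reads. CLK1 and CLK4 have 35.7% and 36.2% GC, CLK3 and CLK2 46.5% and 52.3%. With those trends removed, CLK1 with KJ-PYR-9+DEX against DEX went from -1.74 to -0.28. CLK4 with KJ-PYR-9 went from -0.79 to -0.06. CLK1 made up 16.6% to 18.4% of CLK reads in VEH, 26.7% to 34.2% in DEX, 17.2% to 20.5% in KJ-PYR-9 and 8.1% to 10.5% in KJ-PYR-9+DEX. CLK4 made up 20.8% to 25.6%, 26.9% to 36.9%, 9.9% to 12% and 19.9% to 28.7% in the same groups. CLK1 shares of DEX and of KJ-PYR-9+DEX thus did not overlap with any other group of that experiment, and neither did CLK4 shares of KJ-PYR-9. The sum of the 4 genes was 1338 ± 62.7 (SD, n = 3) in VEH, 1648 ± 72.2 in DEX, 1603 ± 131 in KJ-PYR-9 and 1616 ± 49.1 in KJ-PYR-9+DEX. In the TRA2 pair, TRA2A made up 20.1% to 22.8% of reads in VEH and 17.1% to 20.5% in KJ-PYR-9+DEX. In the SRPK pair, SRPK2 made up 39.2% to 43.3% in VEH and 35.6% to 40.1% in KJ-PYR-9+DEX.

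The mainly cytoplasmic kinases SRPK1 and SRPK2 had their highest means in DEX and their lowest in the KJ-PYR-9 groups. SRPK2 values were 599, 583 and 544 in VEH, 876, 791 and 713 in DEX, 425, 474 and 401 in KJ-PYR-9, and 371, 435 and 324 in KJ-PYR-9+DEX. DEX lay wholly above VEH and both KJ-PYR-9 groups wholly below it, while these 2 overlapped each other. KJ-PYR-9+DEX lowered SRPK2 against DEX by a log2 difference of -1.08 (SE 0.14, limma adjusted p = 0.000182), and by -1.0 without DEX 1 (limma adjusted p = 0.000971). Against VEH, SRPK2 rose with DEX by 0.46 (SE 0.14, limma adjusted p = 0.0454), a call that held only without DEX 3 (limma adjusted p = 0.0319) among the omissions and otherwise gave 0.0818 to 0.158. It was also lost without filtering (limma adjusted p = 0.0664), with TMM rescaling (0.0537), with only the 2 groups fitted (0.0699) and with GC content and length trends removed (0.487). With KJ-PYR-9 SRPK2 was lower, at a log2 difference of -0.41 (SE 0.14, limma adjusted p = 0.0359). Among the omissions this call held only without KJ-PYR-9 2 (limma adjusted p = 0.0462) and otherwise gave 0.0505 to 0.124. It was also lost without filtering (limma adjusted p = 0.0552) and with GC content and length trends removed (-0.01, limma adjusted p = 0.935).

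SRPK1 values were 784, 907 and 741 in VEH, 1189.7, 1243 and 885 in DEX, 593, 640.1 and 499 in KJ-PYR-9, and 672, 751 and 483 in KJ-PYR-9+DEX. DEX overlapped VEH through DEX 3, and KJ-PYR-9 lay wholly below VEH. SRPK1 fell with KJ-PYR-9+DEX against DEX by 0.81 in log2 units (SE 0.19, limma adjusted p = 0.00367), a call that held on omission of each library (-0.96 to -0.62). KJ-PYR-9 alone gave -0.49 (SE 0.19, 95% CI -0.92 to -0.06, limma adjusted p = 0.0607) and DEX alone 0.44 (SE 0.19, 95% CI 0.01 to 0.86, limma adjusted p = 0.124). With the replicate block both were called (limma adjusted p = 0.00299 and 0.0102). The KJ-PYR-9 difference was also called in edgeR (adjusted p = 0.0133) and DESeq2 (adjusted p = 0.00859).

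Of the TRA2 pair, TRA2A passed the main test with KJ-PYR-9+DEX against DEX, and TRA2B in no comparison. TRA2A values were 557, 545 and 552 in VEH, 757, 695 and 536 in DEX, 471, 468 and 370.4 in KJ-PYR-9, and 457, 455 and 377 in KJ-PYR-9+DEX. Both KJ-PYR-9 groups lay wholly below VEH and DEX and overlapped each other. TRA2A fell with KJ-PYR-9+DEX against DEX by 0.61 in log2 units (SE 0.16, limma adjusted p = 0.00537), and by 0.51 without DEX 1 (limma adjusted p = 0.0236). With GC content and length trends removed this difference turned to 0.33 and was called higher (limma adjusted p = 0.0239). KJ-PYR-9 alone gave -0.34 (SE 0.16, limma adjusted p = 0.0965), with a call under the replicate block (limma adjusted p = 0.0206), with TMM rescaling (0.0455), in edgeR (adjusted p = 0.0261) and in DESeq2 (adjusted p = 0.0252). TRA2B values were 1883, 2159.8 and 1947 in VEH, 2132, 2305 and 1758 in DEX, 1777, 1952 and 1658 in KJ-PYR-9, and 1775, 2009 and 1824 in KJ-PYR-9+DEX. The 4 groups of TRA2B overlapped, and its log2 differences were -0.15 with KJ-PYR-9 (95% CI -0.45 to 0.14), 0.04 with DEX (95% CI -0.25 to 0.34) and -0.14 with KJ-PYR-9+DEX against DEX (95% CI -0.43 to 0.16). With GC content and length trends removed the last of these turned to 0.72 and was called higher (limma adjusted p = 0.00326).

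Counted together, 3 of the 8 members were called after KJ-PYR-9, CLK3 higher and CLK4 and SRPK2 lower, where 42.9% of all 13616 genes tested were called (25.4% higher and 17.5% lower). Groups did not overlap for 6 members, against 64.6% of all genes. With the replicate block 7 members were called, all but TRA2B, against 58.0% of all genes. After DEX 3 members were called, all higher (CLK1, CLK4 and SRPK2), against 17.5% of all genes (9.50% higher and 8.02% lower), and with the block 6 members against 43.5%. Groups did not overlap for those same 3 members, against 43.7% of all genes. Without DEX 1 only CLK1 was called after DEX, against 6.35% of all genes. With KJ-PYR-9+DEX against DEX 6 members were called, CLK2 and CLK3 higher and CLK1, TRA2A, SRPK1 and SRPK2 lower, against 68.7% of all genes (33.6% higher and 35.1% lower), and with the block 7, CLK4 included, against 75.3%. Groups did not overlap for the 6 called members, against 69.1% of all genes. Without DEX 1 5 were called, CLK2 no longer among them, against 60.4% of all genes. The median log2 difference of the members was -0.24, 0.34 and -0.48 in these 3 comparisons, beside 0.062, 0.017 and 0.001 over all genes. KJ-PYR-9 and DEX were compared with the same VEH libraries, and DEX libraries enter both DEX comparisons, so these counts are not independent of each other.

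**Figure D3:**
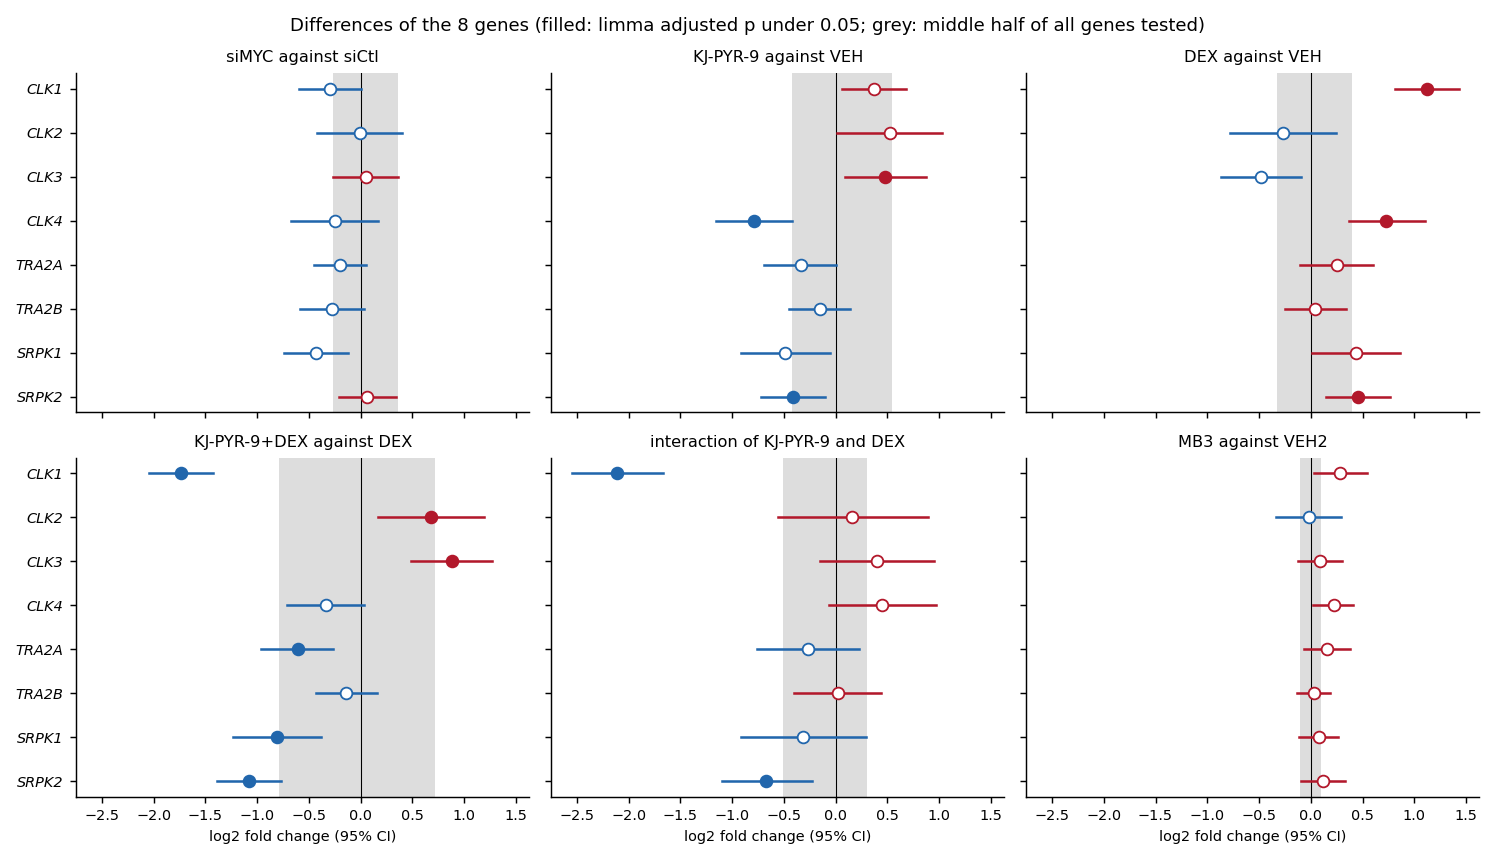
log2 fold change (horizontal axis) with its 95% confidence interval for the 8 genes in the 6 comparisons; filled circles passed a limma adjusted p of 0.05, open ones did not, and the grey band spans the 25th to the 75th percentile of all genes tested. CLK1 lies outside the band at 1.12 in DEX, -1.74 in KJ-PYR-9+DEX against DEX and -2.11 in the interaction, and no circle is filled for siMYC or MB3.

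The members differ in base composition, and removing trends with it changed several of these results. The GC content of the longest transcript was 35.7% in CLK1, 36.2% in CLK4, 40.3% in TRA2B, 41.1% in TRA2A, 41.6% in SRPK2, 45.0% in SRPK1, 46.5% in CLK3 and 52.3% in CLK2. When trends with GC content and length over all genes were removed from each library, the share of all genes called fell from 42.9% to 23.0% for KJ-PYR-9, from 17.5% to 9.50% for DEX and from 68.7% to 32.2% for KJ-PYR-9+DEX. CLK1 was then higher with KJ-PYR-9 by 1.14 (limma adjusted p = 0.000677) and with DEX by 0.51 (0.0394), was not called with KJ-PYR-9+DEX against DEX (-0.28, 0.144), and kept a called interaction of -1.41 (0.000703). CLK4 turned to 1.01 with KJ-PYR-9+DEX against DEX (limma adjusted p = 0.000188), was at -0.06 with KJ-PYR-9 (0.725) and 0.17 with DEX (0.357), and its interaction became 1.07 (0.000857).

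TRA2A and TRA2B shifted likewise. In KJ-PYR-9+DEX against DEX, TRA2A turned from -0.61 to 0.33 (limma adjusted p = 0.0239) and TRA2B from -0.14 to 0.72 (0.00326) once the trends were removed. CLK3 was at 0.97 in that comparison, SRPK1 went from -0.81 to -0.45 and SRPK2 from -1.08 to -0.29, all still called, while CLK2 was no longer called (0.38, limma adjusted p = 0.184). SRPK2 was then at -0.01 with KJ-PYR-9 (limma adjusted p = 0.935) and 0.11 with DEX (0.487), and CLK3 at 0.47 with KJ-PYR-9 (0.0751). The direction of the CLK1 interaction held under both treatments of the values, whereas for CLK4, TRA2A and TRA2B the direction with KJ-PYR-9+DEX against DEX did not. Whether these trends come from the libraries or from the cells was not tested.

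**Figure D4:**
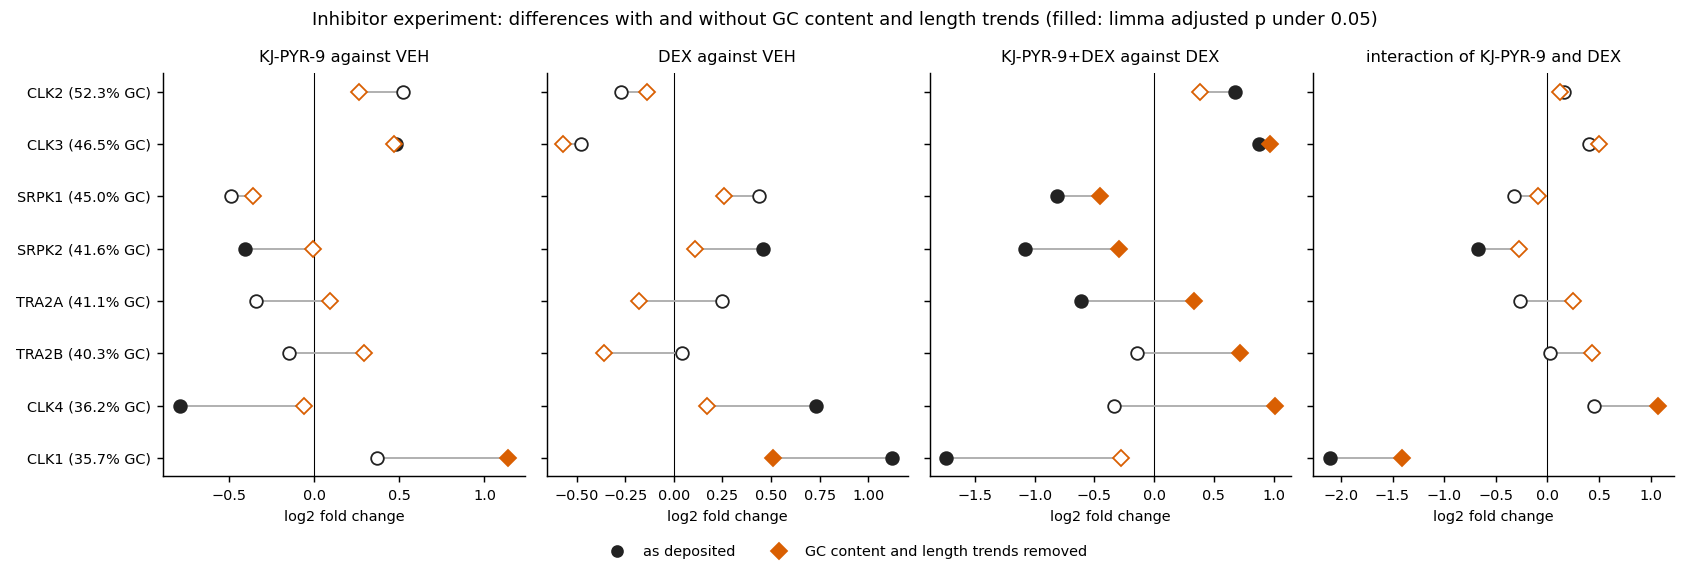
log2 fold change (horizontal axis) of the 8 genes in the 4 comparisons of the inhibitor experiment, as deposited (black circles) and with GC content and length trends removed (orange diamonds), with filled symbols for a limma adjusted p under 0.05 and genes ordered by GC content from 35.7% (bottom) to 52.3% (top). In KJ-PYR-9+DEX against DEX the symbols of CLK4, TRA2A and TRA2B lie on opposite sides of 0, while those of CLK1 lie below 0 throughout that panel and the interaction panel.

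The knockdown asked whether these genes follow MYC over 72 h. None of the 8 members passed the test, where 16.1% of 14788 genes did. An unadjusted p under 0.05 was found for 1 member, SRPK1, and for 5363 of the 14788 genes. In edgeR and in DESeq2 1 member was called, beside 2922 and 3782 of those genes. SRPK1 values were 1874, 1865 and 2251 in siCtl and 1550.1, 1509 and 1372 in siMYC, with no overlap. The log2 difference was -0.43 (SE 0.13, 95% CI -0.74 to -0.12, limma adjusted p = 0.0675), and it was called when only genes averaging 50 or more were tested (0.0476), with TMM rescaling (0.0437), with trended and robust variance (0.0357), with GC content and length trends removed (-0.50, 0.0366), in edgeR (adjusted p = 0.0232) and in DESeq2 (adjusted p = 0.00315). Groups did not overlap for 4 members, all lower in siMYC, where 43.7% of all genes did not overlap in either direction.

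The other 3 of those members were CLK1, TRA2A and TRA2B. CLK1 read 747, 714 and 728 in siCtl and 604, 528 and 654 in siMYC, a log2 difference of -0.30 (SE 0.13, limma adjusted p = 0.14), which turned to 0.05 with GC content and length trends removed. TRA2A read 1465, 1449.9 and 1471 in siCtl and 1310.4, 1258 and 1245 in siMYC (-0.20, SE 0.11, limma adjusted p = 0.21). TRA2B read 4345, 4395 and 4436 in siCtl and 4153, 3383 and 3369.7 in siMYC (-0.28, SE 0.13, limma adjusted p = 0.168), and passed without siMYC 1 (-0.38, limma adjusted p = 0.0495). With those trends removed TRA2A was at -0.10 (limma adjusted p = 0.533) and TRA2B at -0.06 (limma adjusted p = 0.761). The siMYC libraries of TRA2B are split, with replicate 1 close to siCtl.

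CLK2, CLK3, CLK4 and SRPK2 overlapped between siCtl and siMYC. CLK2 read 756, 735 and 716 in siCtl and 574, 849.9 and 805 in siMYC, so the knockdown libraries lay on both sides of the control. CLK4 read 856, 873 and 774 in siCtl and 862, 563 and 713 in siMYC (-0.25, 95% CI -0.67 to 0.17). CLK3 (0.05, 95% CI -0.27 to 0.36) and SRPK2 (0.06, 95% CI -0.21 to 0.34) stayed near 0. The median of the 8 members was -0.22, beside 0.048 over all genes. Of all called genes 70.4% were higher, 59.2% with TMM rescaling and 47.0% with GC content and length trends removed, which moved the median of all genes to -0.052.

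The MB-3 experiment asked whether GCN5 inhibition changes these genes within 3 h. None of the 8 members was called by limma, where 0.0597% of 10048 genes were, and edgeR and DESeq2 called no member either. CLK1 and CLK4 had an unadjusted p under 0.05, as did 1377 of the 10048 genes. CLK1 read 294, 341 and 396 in VEH2 and 428, 404 and 411 in MB3, a log2 difference of 0.28 (SE 0.11, 95% CI 0.03 to 0.54, limma adjusted p = 0.341). CLK4 read 315, 362 and 375 in VEH2 and 406, 415 and 398 in MB3 (0.22, SE 0.09, 95% CI 0.02 to 0.41, limma adjusted p = 0.341). In both genes all MB3 libraries lay above all VEH2 libraries.

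TRA2A, at 610.3, 601 and 615 in VEH2 and 782, 619 and 645 in MB3, was the third member without overlap (0.16, 95% CI -0.07 to 0.38), where the lowest MB3 value lay just above the highest VEH2 value. Over all genes 23.0% did not overlap in either direction. The other 5 members had 95% intervals of -0.34 to 0.29 (CLK2), -0.12 to 0.30 (CLK3), -0.13 to 0.19 (TRA2B), -0.11 to 0.26 (SRPK1) and -0.09 to 0.33 (SRPK2). The median of the members was 0.10, beside 0.011 over all genes. The replicate block called none of the 8 (limma adjusted p of at least 0.225), where it called 0.139% of all genes.

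The proteins that these kinases act on, and other parts of the splicing and decay machinery, were counted in 5 lists. After KJ-PYR-9, 3 of 12 SR protein genes rose and 3 fell, 2 of 28 genes for SR-related proteins rose and 6 fell, 4 of 26 hnRNP genes rose and 5 fell, 3 of 21 genes for other splicing kinases and phosphatases rose and 3 fell, and 5 of 18 genes of nonsense-mediated decay and its known targets rose and 3 fell. Over all genes 42.9% were called, 25.4% higher and 17.5% lower. The list medians were 0.03, -0.12, -0.14, -0.04 and 0.13, beside 0.062 over all genes. With the replicate block the calls were 6, 17, 13, 11 and 11, against 58.0% of all genes. On omission of a library they ranged from 3 to 5, 5 to 10, 6 to 10, 3 to 5 and 4 to 10. With GC content and length trends removed 9 SR protein genes were called higher and 1 lower, 3 and 2 SR-related, 8 and 1 hnRNP, 2 and 1 kinase and phosphatase and 4 and 3 decay genes, against 23.0% of all genes in either direction. SRSF1, the founding SR protein and a substrate of SRPK1, fell from 814 ± 106 (SD, n = 3) in VEH to 195 ± 56.2, a log2 difference of -2.09 (SE 0.34, limma adjusted p = 0.00207). SRSF9 rose from 893 ± 100.1 to 1592 ± 123 (0.84, SE 0.20, limma adjusted p = 0.00823). CLASRP, an SR-related protein that binds CLK4, rose from 343 ± 13 to 709.9 ± 7.97 (1.05, SE 0.17, limma adjusted p = 0.00178), and PPM1G, a phosphatase of the spliceosome, rose from 1914 ± 119 to 3341 ± 209 (0.80, SE 0.15, limma adjusted p = 0.00296). SR protein genes thus moved in both directions, and these 4 stayed called under every alternative run.

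After DEX, 2 of 12 SR protein genes rose and none fell, 2 of 28 SR-related genes rose and 3 fell, 1 of 26 hnRNP genes rose and 1 fell, 2 of 21 kinase and phosphatase genes rose and 1 fell, and 3 of 18 decay genes rose and 3 fell. Over all genes 17.5% were called, 9.50% higher and 8.02% lower. The list medians were 0.27, 0.14, 0.12, 0.03 and -0.01, beside 0.017 over all genes. With the replicate block the calls were 5, 16, 11, 7 and 6, against 43.5% of all genes. With GC content and length trends removed they were 0, 0, 2, 0 and 2, against 9.50%. Single libraries decided these counts: without DEX 1 they were 1, 0, 0, 0 and 2, without DEX 3 they were 4, 9, 6, 4 and 5, and on omission of any 1 of the other 4 libraries they were 1, 0 to 2, 0 to 1, 0 to 1 and 3 to 4. In the decay list GADD45A, a stress gene whose transcript is a known target of decay, rose from 425 ± 83.4 in VEH to 1749 ± 115 (2.05, SE 0.20, limma adjusted p = 0.000131), and GADD45B from 282 ± 18.0 to 742 ± 74.3 (1.39, SE 0.15, limma adjusted p = 0.000274). Both also rose with KJ-PYR-9, by 2.19 and 2.22 (limma adjusted p = 0.000122 and 1.71e-05). These are not decay factors, and of the 15 genes named by rule in the DEX comparison, they were the 2 that stayed called under every alternative.

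With KJ-PYR-9+DEX against DEX, 8 of 12 SR protein genes fell and 1 rose, where 35.1% of all genes were called lower and 33.6% higher, with a list median of -0.61 beside 0.001 over all genes. Of 28 SR-related genes 14 fell and 6 rose (median -0.40), of 26 hnRNP genes 11 fell and 4 rose (-0.28), of 21 kinase and phosphatase genes 9 fell and 7 rose (-0.10), and of 18 decay genes 5 fell and 6 rose (-0.08). In all, 9, 20, 15, 16 and 11 genes of the lists were called, against 68.7% of all genes, and 8, 19, 14, 14 and 9 without DEX 1. The medians of all but the SR-related list changed sign with GC content and length trends removed, when 32.2% of all genes were called. Then 6 SR protein genes were higher and none lower (median 0.50), 11 hnRNP genes higher and 2 lower (0.23), 7 kinase and phosphatase genes higher and 1 lower (0.11), 5 decay genes higher and 3 lower (0.02), and 3 SR-related genes higher and 9 lower (-0.13). In the interaction, 3 SR protein genes, 2 SR-related, 2 hnRNP, 2 kinase and phosphatase and 4 decay genes were called, against 16.8% of all genes, with 6, 8, 9, 4 and 5 under the replicate block, against 32.3%. On omission of a library these counts ranged from 0 to 5, 1 to 6, 0 to 4 and 1 to 3, with 4 decay genes each time. Without DEX 1 they were 3, 2, 0, 2 and 4, against 12.6% of all genes. SRSF3, a small SR protein, fell from 3368 ± 514 in DEX to 1515 ± 410.1 (-1.18, SE 0.21, limma adjusted p = 0.00075), with -1.15 (limma adjusted p = 0.0036) without DEX 1, and its value was -0.15 (0.365) with GC content and length trends removed. SRSF1 fell from 963 ± 294 to 364 ± 145 (-1.45, SE 0.34, limma adjusted p = 0.00348), with -1.39 (limma adjusted p = 0.0139) without DEX 1 and -0.50 (0.121) after that removal. HIPK2, a nuclear kinase related to the DYRK family, rose from 1331 ± 6.21 to 2996 ± 423 (1.16, SE 0.13, limma adjusted p = 0.000111). CDK9, the kinase of the elongation factor P-TEFb, rose from 339.8 ± 51.9 to 834 ± 199 (1.28, SE 0.19, limma adjusted p = 0.000286). RSRC2 fell from 889 ± 73.4 to 296 ± 119.6 (-1.67, SE 0.27, limma adjusted p = 0.000473). HIPK2, CDK9 and RSRC2 stayed called under every alternative run. Without DEX 1 they stood at 1.16, 1.15 and -1.61 (limma adjusted p = 0.000606, 0.00145 and 0.00256).

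In the knockdown limma called few genes of these lists: none of 12 SR protein and 26 hnRNP genes, 1 of 28 SR-related genes (PNN), 1 of 21 kinase and phosphatase genes (PRPF4B), and 3 of 18 decay genes, where 16.1% of all genes were called. At an unadjusted p under 0.05 there were 3 SR protein, 9 SR-related, 8 hnRNP, 5 kinase and phosphatase and 3 decay genes. Over all 14788 genes, 5363 had such a p. In the same order of lists edgeR called 1, 3, 5, 3 and 3, beside 2922 of all genes. DESeq2 called 3, 8, 8, 3 and 3, beside 3782 of all genes. Without siMYC 1 limma called 2, 9, 4, 3 and 5, beside 3983 of 14759 genes. On omission of each other library limma called 0, 0, 0, 0 and 2, beside 432 to 1775 of all genes. GADD45A rose from 954 ± 70.3 in siCtl to 1892 ± 155 in siMYC (0.99, SE 0.13, limma adjusted p = 0.0101). GAS5, a noncoding host gene of small nucleolar RNAs that is a known target of decay, fell from 3108 ± 101 to 1692 ± 119 (-0.88, SE 0.12, limma adjusted p = 0.0102). After MB-3 limma called no gene of the 5 lists among the 10 SR protein, 27 SR-related, 26 hnRNP, 19 kinase and phosphatase and 18 decay genes tested. Of these 1, 2, 1, 5 and 6 had an unadjusted p under 0.05, beside 1377 of all 10048 genes. In edgeR 1 decay gene was called, beside 16 of all 10048 genes. DESeq2 called 1 hnRNP and 1 decay gene, beside 152 of 9853 genes.

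Genes whose pattern was most like that of each member were found by the root mean square of the difference in log2 value over 24 libraries, each taken from its own control mean, among 9826 genes. TRA2A was nearest to RYK (0.08) and RDH11 (0.09), TRA2B to YTHDC1 (0.08), and SRPK1 to TOMM70 (0.08) and CCDC25 (0.09). CLK3 was nearest to DHX16 (0.09) and SNAP47 (0.10), and SRPK2 to CNOT8 and UBE2D3 (both 0.10). CLK2 was nearest to GALNT16 (0.13) and PABPC1L (0.15), CLK4 to ZNF189 (0.19) and RBMS1 (0.20), and CLK1 to HOMER1 and ND4 (both 0.19). CLK1 and CLK4 had no gene nearer than 0.19, where the medians over all genes were 0.61 and 0.57. Among the members themselves, CLK2 and CLK3 were nearest to each other (0.22), TRA2A and SRPK1 likewise (0.15), whereas CLK1 was nearest to SRPK2 (0.41) and CLK4 to SRPK1 (0.36), not to each other. These are descriptions over libraries that share their controls.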

How the data were processed

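RNA depleted of ribosomal RNA was sequenced as paired ends from 24 BT549 libraries, per the labels' protocols. The signal of each library consists of normalized read counts, 1 per gene, that the authors deposited and that the submitters' processing notes credit to bcl2fastq, SAMtools, featureCounts and DESeq2 on GRCh38; the aligner, annotation, strand setting and versions are not given in the sources used here. Divided by a factor per library, 100% of values were whole within 0.0001, so reads could be recovered. Features without a symbol took no part, and features sharing a symbol were added up. The 3 experiments were normalized separately and were each fitted alone.

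The test was limma 3.58.1 (R 4.3.3), two-sided, on log2(value + 1), which understates changes of low genes. Genes averaging 10 or more in a fit were tested (14788, 13616 and 10048), p-values were adjusted over all of them by Benjamini and Hochberg's method, and 0.05 was the threshold. All 12 inhibitor libraries entered 1 fit. The members, the 5 gene lists and the tests were chosen with earlier results of these data known, and confidence intervals are not adjusted. Named beyond the 8 members were MYC and KAT2A, up to 2 called genes of each list with the largest rise and 2 with the largest fall per comparison, and the 2 genes most like each member with a mean of at least 50 in each experiment, of which 1 is not reported here.

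Alternatives were a pseudocount of 5, a mean of at least 50, no filter, TMM rescaling, trended and robust variance, edgeR 4.0.16 and DESeq2 1.42.0 on the recovered reads, the replicate number as a block, removal of GC content and length trends by natural splines (95.77% to 97.46% of genes had both), a fit of only the 2 groups compared, and omission of each library. Libraries that share a replicate number were checked for correlated deviations. The 18 pairs of the inhibitor experiment gave 0.13 to 0.524 and the 3 of MB-3 0.208 to 0.389, all over 0.1 and so taken as paired. The 3 of the knockdown gave -0.346 to -0.02. Libraries with different numbers gave -0.468 to 0.236 in the inhibitor experiment, so the ranges overlapped there. They gave -0.329 to 0.194 in MB-3 and -0.172 to 0.346 in the knockdown. The main fit used group means without this pairing, which enters only as the block alternative. Fits were tested on simulated data. Intervals and counting errors cover counting only where they are called so.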

Additional observations from a re-analysis of the deposited data

Results flagged for a closer look

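The effect of KJ-PYR-9 differed between cells without and with DEX, by the limma interaction test, for 2 of the 8 genes. Of all genes 16.8% passed that test. Without DEX 1 only CLK1 of the 8 passed it, against 12.6% of all genes. In the lists it was passed by 3 of 12 SR protein, 2 of 28 SR-related and 2 of 26 hnRNP genes. The same held for 2 of 21 kinase and phosphatase and 4 of 18 decay genes. The 11 list genes named here were picked because they were called, so their number is not compared with that share. CLK1 had the interaction of -2.11 (limma adjusted p = 5.79e-05) and SRPK2 that of -0.67 (limma adjusted p = 0.0419). Among the SR proteins, SRSF3 stood at -1.06 (limma adjusted p = 0.0351) and SRSF6 at -0.86 (0.0181). Among kinases, HIPK2 stood at 1.20 (limma adjusted p = 0.00185) and DYRK1A at -0.59 (0.0204). Among SR-related proteins, SRRM2, a scaffold of nuclear speckles, stood at 0.73 (limma adjusted p = 0.00679) and RSRC2 at -1.59 (0.0186), and among hnRNP genes HNRNPUL2 stood at 1.07 (0.0447) and PTBP2 at -1.19 (0.0453). In the decay list, UPF1, the central helicase of nonsense-mediated decay, stood at 0.98 (limma adjusted p = 0.0166), GADD45A at -2.45 (0.000272) and GADD45B at -1.57 (0.000796). CLK1, HIPK2, UPF1, GADD45A and GADD45B kept their calls in every alternative run. The calls of SRPK2, SRSF3, SRSF6, DYRK1A, SRRM2, RSRC2, HNRNPUL2 and PTBP2 were each lost in at least 1 alternative. Without DEX 1 those of SRPK2 (limma adjusted p = 0.0897), SRSF3 (0.0707), HNRNPUL2 (0.0899) and PTBP2 (0.101) were lost.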

How the results depend on the processing

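Depth limits CLK2 and CLK1 most, with 68 to 83 reads in the shallowest libraries. Over 8 genes and 6 comparisons, other settings gave 456 values, of which 393 kept direction and side of the threshold, 18 lost a call, 28 gained one and 17 changed sign; omission of a library gave 336 values, of which 287 kept both, 32 lost a call, 4 gained one and 13 changed sign. The cause was not tested unless a value shows it.

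Members called in the knockdown were 0, and 1 with a mean of at least 50, TMM rescaling, trended variance, edgeR, DESeq2 or GC content and length trends removed. Genes called were 2386, with 3782 in DESeq2 and 470 with the replicate block, which called no member there. For KJ-PYR-9, 3 members became 5 (mean of at least 50, DESeq2, only the 2 groups), 1 (no filter, trends removed) or 7 (replicate block), and 5835 genes became 2997 with trends removed. For DEX, 3 members became 6 (block) or 1 (trends removed), and 2386 genes became 3737 (DESeq2), 5925 (block) or 1240 (trends removed). For KJ-PYR-9+DEX against DEX, 9351 genes became 4199 with trends removed. In the interaction, 2 members became 1 (no filter, TMM rescaling, edgeR) and 2283 genes became 4399 (block). For MB3, 6 genes became 11 (trended variance), 16 (edgeR), 152 (DESeq2, 30 higher and 122 lower against 3 and 3), 14 (block) or 10 (trends removed). The share of calls that were higher moved from 59.2% to 49.8% with TMM rescaling for KJ-PYR-9, and the median of all genes in the interaction moved from -0.109 to -0.003 with trends removed. The block changed no other call of a member than those given beside the results. Among list genes named in the knockdown, calls lost under the block were those of PRPF4B, PNN, GAS5 and UPF3B (limma adjusted p = 0.0934, 0.0858, 0.0558 and 0.122).

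On omission of a library, members called ranged from 0 to 1 in the knockdown, 1 to 3 for KJ-PYR-9, 1 to 4 for DEX, 5 to 7 for KJ-PYR-9+DEX against DEX, 1 to 2 in the interaction and 0 to 0 for MB3. Genes called ranged from 432 (without siCtl 3) to 3983 (without siMYC 1) in the knockdown, where siCtl 1 (570.0), siCtl 2 (530.0) and siMYC 3 (520.0) also lowered it. They ranged from 3393 (without KJ-PYR-9 3) to 5433 for KJ-PYR-9, where VEH 1 gave 3489, and from 865 (without DEX 1) to 3620 (without DEX 3) for DEX, where VEH 1, VEH 2, VEH 3 and DEX 2 gave 1326, 1055, 961 and 1187. For KJ-PYR-9+DEX against DEX each omission left at least 8227. They ranged from 1469 (without KJ-PYR-9 1) to 2731 in the interaction, where KJ-PYR-9 2 gave 1495, and from 1 to 3 for MB3.

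Signs changed as follows. With GC content and length trends removed, in the knockdown CLK1 was at 0.05 and CLK4 at 0.11; for KJ-PYR-9 TRA2A at 0.09, TRA2B at 0.29 and SCAF1 at -0.27; for DEX TRA2A at -0.18 and TRA2B at -0.36; for KJ-PYR-9+DEX CLK4 at 1.01, TRA2A at 0.33, TRA2B at 0.72, PRPF4B at 0.08, SCAF1 at -0.02, SNRNP70 at -0.17, PTBP3 at 0.03 and MAGOHB at 0.35; in the interaction TRA2A at 0.25; and for MB3 CLK2 at 0.01 and TRA2B at -0.05. In the knockdown CLK3 was at -0.02 with TMM rescaling and edgeR and -0.01 in DESeq2, and SRPK2 at -0.01 with TMM rescaling and -0.0007 in edgeR. On omission, values that changed sign ranged, in the knockdown, from -0.11 to 0.17 for CLK2 (above 0 without siCtl 1 or siMYC 1) and -0.06 to 0.11 for CLK3 (below 0 without siMYC 2), for DEX from -0.04 to 0.15 for TRA2B (below 0 without DEX 2), in the interaction from -0.04 to 0.34 for CLK2 (below 0 without KJ-PYR-9 2) and -0.09 to 0.10 for TRA2B (below 0 without VEH 2, DEX 3, KJ-PYR-9 3 or KJ-PYR-9+DEX 2), and for MB3 from -0.13 to 0.10 for CLK2 (above 0 without VEH2 3, MB3 1 or MB3 2) and -0.0001 to 0.06 for TRA2B (below 0 without MB3 1).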
